A study of Rattus norvegicus with 21 samples.

Results

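Rat hearts under permanent coronary ligation with the pretreatment labelled F were compared with ligated hearts without it. The comparison took 6 of the 21 libraries of the series by their group labels. These were the 3 MI24h_F libraries F1, F2 and F4 and the 3 MI24h libraries 11, 21 and 41, and 11742 of the 17085 symbols passed the filter on low counts. All libraries were bulk RNA sequencing of the infarct zone of Sprague Dawley rats. In MI24h and MI24h_F the left anterior descending artery stayed tied for 24 h with no reperfusion. The other groups used beside them were Sham, the operated hearts without infarction, MI1h_R and MI1h_F with 1 h of ischemia and 23 h of reperfusion, and MI6h_R and MI6h_F with 6 h of ischemia and 18 h of reperfusion, each with 3 libraries. The design text names fenofibrate as a pretreatment of each group, while the labels give only the letter F, which is taken here as that arm. Dose, route, duration, vehicle, sex and age are not stated in the sources used here, and no Sham group carried F, so the effect of F cannot be told apart from that of handling that differed with it. Nothing in the labels ties the libraries to separate animals, and the p-values then measure only the spread between these libraries, which may be technical.

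Fenofibrate is a prodrug whose acid activates PPARα, a nuclear receptor for fatty acids. PPARα binds DNA together with RXR at repeats of a short half-site and switches on genes of fatty acid uptake, mitochondrial and peroxisomal oxidation and ketone production. The heart draws most of its fuel from fatty acids, and the estrogen-related receptors (ERRs) with the PGC-1 coactivators keep its mitochondrial genes active. In the zone behind a permanent ligature cardiomyocytes die, neutrophils enter first, and macrophages and dividing stromal cells follow.

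With F, some genes of cardiomyocytes and of the nuclear-encoded respiratory chain fell, and some genes of cell division and single immune genes such as Alox15 and Il33 rose. In edgeR's quasi-likelihood test 609 genes rose and 914 fell at an adjusted p under 0.05 (called, from here on). These are 5.19% and 7.78% of the genes tested, and the edgeR counts in the gene lists below are to be read beside these shares. An unadjusted edgeR p under 0.05 was found for 3419 genes, 29.1% of those tested. List counts by unadjusted p are to be read beside that share. Of the called genes, 161 rose and 337 fell with a log2 fold change of 1 or more in size. Over the same 11742 genes DESeq2 called 913 up and 1151 down, and limma-voom 1288 up and 1628 down. In edgeR on the 6 libraries alone, 626 of 11126 genes rose and 708 fell. List counts from these fits are to be read beside these totals. The 3 libraries with F lay entirely above or below the 3 without it in 4258 genes, which is 36.3% of those tested. This share covers both directions, and list counts of such genes are to be read beside it. The median log2 fold change over all genes was -0.07. Fold changes are log2 values of F minus no F, with the standard error (SE), and levels are CPM values (counts scaled to library size and by TMM), listed for MI24h libraries 11, 21 and 41 and then for MI24h_F libraries F1, F2 and F4.

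How firmly single genes stand depended on the libraries. Total counts of the 6 libraries ran from 12621624 to 14920229, and in a principal component analysis of these 6 the first component, with 42.9% of the variance, separated the 2 groups. With 1 library left out in turn, between 132 and 431 genes rose and between 184 and 615 fell. The lowest counts came without F1, and 284 of the 1523 called genes kept their call whichever of the 6 libraries was left out. Such genes are said below to hold without any 1 library, and for the others the libraries whose removal ended the call are named. Without both 41 and F1, with 2 libraries left in each group, 1 gene rose and 0 fell in all. Transcripts of the mitochondrial genome took 16.1% ± 2.16 of all counts in MI24h and 17.0% ± 0.361 in MI24h_F (SD, n = 3 each). Levels in Sham are given for orientation and rest on TMM factors of 0.535 to 0.677 in Sham, against 0.998 to 1.11 in the 6 ligated libraries.

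**Figure D1:**
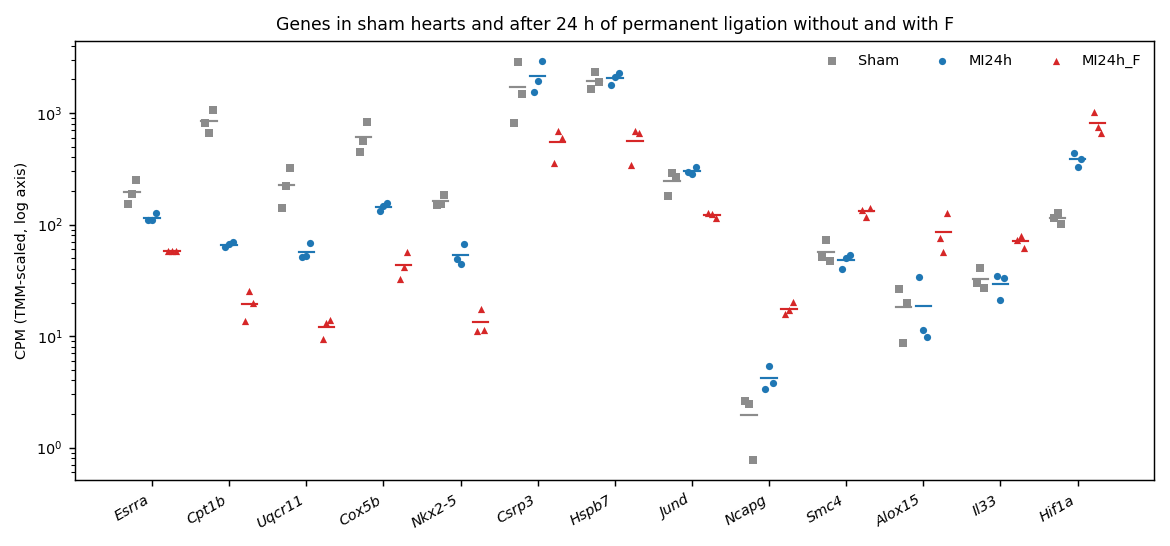
CPM on a log axis (y) of 13 genes (x) in each library of Sham, MI24h and MI24h_F, with 1 point per library and a bar at the group mean. In every gene shown the 3 MI24h_F points lie wholly below (Esrra to Jund) or wholly above (Ncapg to Hif1a) the 3 MI24h points, and the 3 Esrra points with F lie between 57.3 and 58.3 CPM.

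The receptors themselves and the classical PPARα targets were examined first, since they are where an agonist of PPARα would act. None of the 13 tested genes of the PPAR and RXR receptors and their coregulators was called by edgeR or DESeq2, 1 fell in limma-voom, and 3 had an unadjusted edgeR p under 0.05. Ppara, which encodes PPARα, was at 2.19, 2.93 and 1.3 CPM without F and at 2.80, 1.53 and 1.69 CPM with F. These groups overlapped, far below the mean Sham level of 13.7 CPM. Ppard had a log2 fold change of -0.59 ± 0.28, Pparg of 0.51 ± 0.23 and Rxra, the partner receptor, of -0.09 ± 0.29, none of them called (edgeR adjusted p = 0.174, 0.154 and 0.876).

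Of 45 tested PPARα target genes, 4 fell (Cpt1b, Slc27a1, Cidea and Pnpla2), none rose in edgeR and 1 rose in DESeq2 and in limma-voom. The 4 that fell are close to the share of all tested genes that fell in edgeR, which was 7.78%. In DESeq2 7 fell, in limma-voom 9 and in edgeR on these 6 libraries alone 11 of 44. Over all tested genes 1151 of 11742 fell in DESeq2, 1628 in limma-voom and 708 of 11126 in edgeR on these 6 libraries alone. Without F1 none of the 45 was called. The list's median log2 fold change was -0.35, against -0.07 over all genes. Cpt1b encodes the muscle form of the carnitine acyltransferase that admits fatty acids to mitochondria. It was at 63.0, 66.4 and 69.2 CPM without F and at 13.5, 25.2 and 20 CPM with F. The groups stood apart, and both lay under the Sham mean of 844 CPM (log2 fold change -1.76 ± 0.55, edgeR adjusted p = 0.0434). This call was lost without any 1 of the 6 libraries (largest edgeR adjusted p = 0.175, without F1). Slc27a1, a fatty acid transporter, was at 101, 78.2 and 105 CPM against 62.9, 63.8 and 57.8 CPM with F (log2 fold change -0.62 ± 0.16, edgeR adjusted p = 0.0169). Pnpla2, the triglyceride lipase, had identical counts to LOC100911615 in every library and was at 198, 134 and 161 CPM against 66.0, 79.0 and 63.4 CPM (log2 fold change -1.24 ± 0.28, edgeR adjusted p = 0.0099). Cidea, a lipid droplet protein gene, had a log2 fold change of -1.70 ± 0.49 (edgeR adjusted p = 0.0290). Slc27a1 lost its call without 11, 41, F1 or F4 (up to 0.0671) and in edgeR on these 6 libraries alone (0.0543), Cidea without 41, F1 or F4 (up to 0.122) and Pnpla2 without F1 (0.0579).

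The promoter of Slc27a1 is shown because it was the called target gene whose window held a nuclear receptor half-site. It is the RefSeq window of GRCr8, from 250 bases before to 50 bases after the transcript start (chr16:18312717-18313016, plus strand), and capitals mark AGGTCA or CCAAT on either strand.
Slc27a1: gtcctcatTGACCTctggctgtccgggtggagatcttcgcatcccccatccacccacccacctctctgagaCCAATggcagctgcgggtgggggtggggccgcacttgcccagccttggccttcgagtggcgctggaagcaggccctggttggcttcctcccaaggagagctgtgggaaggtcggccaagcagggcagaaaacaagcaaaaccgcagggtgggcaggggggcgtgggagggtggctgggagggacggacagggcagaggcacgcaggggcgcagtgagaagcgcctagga
AGGTCA, on either strand, was found in 8 of the 33 target gene promoters at hand (24.2%), in 12% of the 9076 promoters of all tested genes, in 11% of those of genes that rose and in 12.9% of those of genes that fell. These matches describe letters in a window and not bound sites.

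Other classical targets of PPARα were not called in the main fit. Pdk4, the kinase that shuts off pyruvate dehydrogenase, was at 46.3, 25.3 and 31.8 CPM without F and at 12.9, 34.1 and 12.8 CPM with F. Library F2 lay among the MI24h values, so the groups overlapped (log2 fold change -0.78 ± 0.57). Angptl4, a secreted lipase inhibitor, was at 330, 157 and 317 CPM against 266, 290 and 179 CPM (-0.13 ± 0.54), and Plin2, a lipid droplet coat, at 1582, 709 and 896 CPM against 1240, 1351 and 914 CPM (0.14 ± 0.31). Both were well above their Sham means of 18.4 and 161 CPM in all 6 libraries and overlapped between the groups. Ucp3, a mitochondrial carrier, stayed under 2 CPM in all 6 libraries. Cpt1a, the liver form of the acyltransferase (-0.17 ± 0.18), and Ehhadh, a peroxisomal enzyme (-0.53 ± 0.55), overlapped too. Acot2, a mitochondrial thioesterase, was at 35.1, 30.1 and 39.6 CPM without F and lower in every library with F, at 20.7, 22.5 and 15.5 CPM. It was not called (-0.83 ± 0.53, edgeR adjusted p = 0.321, and 0.0397 in edgeR on these 6 libraries alone). Cd36, the fatty acid translocase that macrophages also carry, lay higher in every library with F. Its counts were identical to those of RGD1565355, a copy that RefSeq names Cd36l1, and the shared values were 48.1, 48.7 and 54.7 CPM against 183, 123 and 118 CPM (1.49 ± 0.57, edgeR adjusted p = 0.0904). Cd36 is the 1 target that rose in DESeq2 (adjusted p = 0.0446) and in limma-voom (adjusted p = 0.00722), and it also rose in edgeR on these 6 libraries alone (adjusted p = 0.0117).

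**Figure D2:**
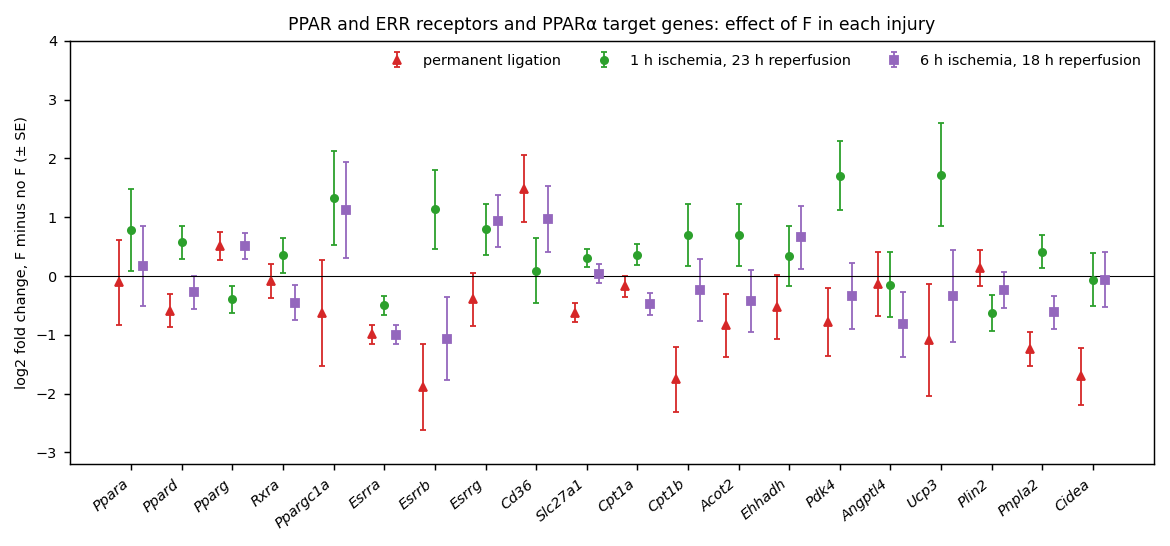
Log2 fold change of F minus no F with its SE (y) for receptors and PPARα target genes (x) under permanent ligation (triangles), with 1 h of ischemia (circles) and with 6 h of ischemia (squares), 3 libraries in each group. Under permanent ligation Esrra, Slc27a1, Cpt1b, Pnpla2 and Cidea were called, all below 0, while Cd36 at 1.49 was not.

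Esrra, which encodes ERRα, fell with little spread. It was at 110, 110 and 126 CPM in MI24h and at 57.3, 57.8 and 58.3 CPM in MI24h_F. All 3 values with F lay below all others, and Sham had a mean of 196 CPM. The log2 fold change was -0.99 ± 0.16 (edgeR adjusted p = 0.00276), and the call held without any 1 library (largest adjusted p = 0.0219). Of the 8 tested ERR receptors and coactivators Esrra was the only 1 that edgeR called, while limma-voom called 1 and DESeq2 2, all lower. Esrrb and Esrrg, the receptors in the title of the series, were low in these infarcts. Esrrb was at 2.92, 2.14 and 0.891 CPM without F and at 0.303, 0.890 and 0.367 CPM with F (-1.89 ± 0.73, edgeR adjusted p = 0.0918, and 0.048 in DESeq2). Esrrg was at 9.47, 5.07 and 6.31 CPM against 4.08, 5.34 and 6.38 CPM (-0.40 ± 0.45), and Ppargc1a, which encodes PGC-1α, was between 0.529 and 2.32 CPM in the 6 libraries (-0.63 ± 0.91). Esrrg and Ppargc1a overlapped between the groups.

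Some nuclear genes of the respiratory chain fell with F. Of 31 tested, 11 fell and none rose, and the median log2 fold change was -0.66. All 3 libraries with F lay below all 3 without in 19 of the 31, while 36.3% of all tested genes stood apart in either direction. Uqcr11, a small subunit of complex III that is not on this list, was at 50.9, 52.2 and 68.6 CPM without F and at 9.38, 13.1 and 13.8 CPM with F. Among called genes with a mean of at least 10 CPM and no overlap, from which 15 in each direction are named by size of change, it had the most negative log2 fold change, -2.24 ± 0.32 (edgeR adjusted p = 0.00206). Of the list, Cox5b of complex IV was at 132, 146 and 155 CPM against 32.4, 41.6 and 56.4 CPM (-1.73 ± 0.27, adjusted p = 0.00244), and Ndufb8 of complex I at 136, 158 and 176 CPM against 53.1, 60.3 and 84.1 CPM (-1.25 ± 0.23, adjusted p = 0.00399). Uqcr11, Cox5b and Ndufb8 held without any 1 library. Ndufv1 (-1.15 ± 0.28), which carries the flavin of complex I, lost its call without F1 (edgeR adjusted p = 0.0698). Cox4i1 (-1.0 ± 0.25) and the muscle isoform Cox6a2 (-1.73 ± 0.44) lost theirs without 41 or F1 (up to 0.0908 and 0.10). Without F1, 2 of the 31 were called and the median was -0.52, and without 41, 3 were called. The list is of short transcripts, with a median relative length of 0.447 (1 is the middle of all genes), and with the length trend described further on taken out 7 of the 31 fell and the median was -0.50. Chchd10, a protein of the mitochondrial cristae, was at 109, 132 and 149 CPM against 15.4, 36.8 and 32.2 CPM (-2.20 ± 0.55, edgeR adjusted p = 0.0157, and 0.0920 without F1).

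Few genes of the pathways that feed the chain were called. Of 23 fatty acid oxidation genes 3 fell (Cpt1b, Acads and Etfb) and none rose, with a median of -0.55, and no more than 1 was called in any fit with 1 library left out. Etfb, a subunit of the electron carrier of β-oxidation, was at 47.3, 63.0 and 78.8 CPM against 18.5, 27.2 and 35.7 CPM (-1.21 ± 0.31, edgeR adjusted p = 0.0181, lost without 41, F1 or F2, up to 0.106). Acads, the short-chain dehydrogenase, had a log2 fold change of -1.04 ± 0.33 (edgeR adjusted p = 0.0457, lost without any 1 library, up to 0.155). In the citric acid cycle none of 20 genes was called by edgeR or DESeq2, and 3 fell in limma-voom. While 29.1% of all tested genes had an unadjusted edgeR p under 0.05, 6 of these 20 did, all with lower levels. Idh2 and Mdh2, among the most abundant of them, were lower in all 3 libraries with F (-1.02 ± 0.40 and -0.52 ± 0.24), and Idh2 fell in limma-voom (adjusted p = 0.04) and in edgeR on these 6 libraries alone (adjusted p = 0.0276). Of 11 genes of ketone and amino acid oxidation 2 fell and none rose, among them Bckdha of branched-chain amino acid breakdown (-1.19 ± 0.37, edgeR adjusted p = 0.0441, lost without any 1 library, up to 0.164), and none of the 11 was called with the length trend taken out. The 13 genes of the mitochondrial genome did not follow, with a median of 0.18. ATP8 was called up among them at 3.86, 2.26 and 3.77 CPM against 13.5, 9.28 and 21.5 CPM (2.16 ± 0.64, edgeR adjusted p = 0.0336). This gene overlaps ATP6 on the mitochondrial genome, so how its reads were assigned is uncertain, and the call was lost without 11, 21, 41, F1 or F4 (up to 0.113). In limma on the deposited TPM values ATP8 had a log2 fold change of 1.1 and was not called (adjusted p = 0.292 with a pseudocount of 1 and 0.302 with 0.1).

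Cardiomyocyte markers had lower sums in the same libraries. The 17 tested markers summed to 11820 to 16670 CPM in MI24h, to 3872 to 6976 CPM in MI24h_F and to 80270 to 141200 CPM in Sham. In 12 of the 17 all libraries with F lay below all without, while 36.3% of all tested genes stood apart in either direction. In edgeR 6 fell (Actc1, Tnni3, Myl3, Mb, Ckm and Csrp3), and none rose in edgeR, DESeq2 or limma-voom. The other way went 1 of the 17, with a log2 fold change of 1.9 and an unadjusted edgeR p under 0.05. The list's median was -1.38. In bulk tissue, fewer cells of a type and less RNA per cell cannot be told apart, here and in each marker list below. Csrp3, a Z-disc protein gene, was at 1529, 1947 and 2942 CPM against 355, 683 and 599 CPM (-1.97 ± 0.44, edgeR adjusted p = 0.00933, and 0.0648 without F1). Tnni3, cardiac troponin I, was at 664, 844 and 1027 CPM against 166, 398 and 301 CPM (-1.55 ± 0.45, edgeR adjusted p = 0.0313). Mb, myoglobin, was at 1734, 1558 and 1993 CPM against 417, 807 and 782 CPM (-1.40 ± 0.42, edgeR adjusted p = 0.0355). In each of these F1 was the lowest library and the groups stood apart. The defining markers Myh6 (-1.34 ± 0.55) and Tnnt2 (-1.38 ± 0.47) also stood apart and were not called (edgeR adjusted p = 0.117 and 0.0587). Tnnt2 fell in DESeq2 (adjusted p = 0.0197), in limma-voom (0.0236), in limma on TPM (0.0354 and 0.0378) and in edgeR on these 6 libraries alone (0.024), and Myh6 fell in limma-voom (0.0495). Without F1 none of the 17 was called in edgeR and the median was -1.10. Mb lost its call without any 1 library (up to 0.167), Tnni3 without 21, 41, F1 or F4 (up to 0.151), Ckm without any but 11 (up to 0.134), and Actc1 without 21, 41, F1 or F4 (up to 0.124).

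The cardiac transcription factor Nkx2-5 fell and held without any 1 library. It was at 49.5, 44.5 and 66.9 CPM in MI24h and at 11, 17.5 and 11.2 CPM in MI24h_F, below the mean of 162 CPM in Sham (-2.01 ± 0.38, edgeR adjusted p = 0.00399). Genes that injured cardiomyocytes switch on were tested as well. Of 10 natriuretic and stress genes 5 fell (Nppb, Acta1, Ankrd1, Xirp1 and Nrap) and none rose, with a median of -1.21, and 1 to 4 of them were called with 1 library left out. Xirp1, a repair protein of the intercalated disc, stood above Sham (mean 112 CPM) in all 3 MI24h libraries, at 609, 414 and 289 CPM, and was at 75.4, 187 and 147 CPM with F (-1.68 ± 0.38, edgeR adjusted p = 0.0099, and 0.0655 without F1). Nrap, which anchors myofibrils, was at 328, 288 and 221 CPM against 51.1, 106 and 105 CPM (-1.68 ± 0.35, adjusted p = 0.00683) and held without any 1 library. Nppb, the BNP gene (-1.11 ± 0.33, edgeR adjusted p = 0.0328), lost its call without any but 11 (up to 0.151), Ankrd1 (-1.19 ± 0.37) without any but F2 (up to 0.189) and Acta1 (-1.22 ± 0.31) without 21, 41, F1 or F4 (up to 0.0996). Des, the desmin gene of all muscle, was at 4108, 5321 and 7754 CPM against 1887, 3142 and 2185 CPM (-1.25 ± 0.30, edgeR adjusted p = 0.0126, lost without 41 or F1, up to 0.0790). Klhl40, a muscle protein stabiliser with a Sham mean of 4.44 CPM, was at 39.8, 13.2 and 29.1 CPM against 4.46, 10.9 and 5.50 CPM with F (-1.97 ± 0.56, edgeR adjusted p = 0.0285, lost without 11, 41, F1 or F4, up to 0.134).

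**Figure D3:**
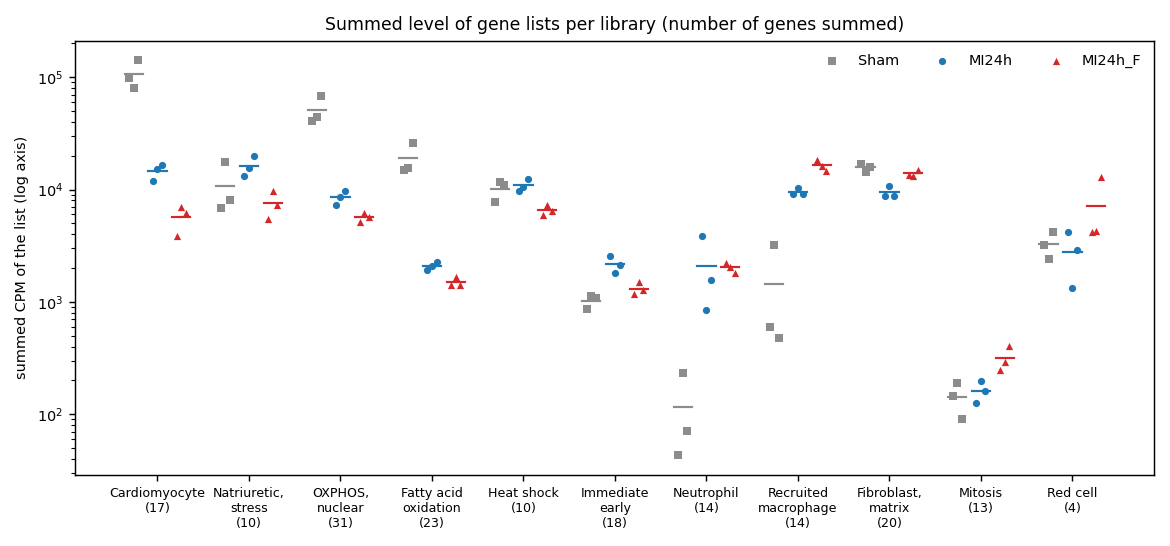
Summed CPM on a log axis (y) of 11 gene lists (x, with the number of genes summed) in each library of Sham, MI24h and MI24h_F, with a bar at the group mean. Cardiomyocyte markers, the natriuretic and stress list, respiratory chain and fatty acid oxidation genes lie lower in all 3 MI24h_F libraries, recruited macrophage, fibroblast and mitosis genes lie higher in all 3, and neutrophil and red cell markers overlap.

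Some heat shock and immediate early genes fell with F, while other stress lists gave no edgeR call. Of 10 heat shock chaperones 4 fell (Hspb7, Bag3, Hspb1 and Cryab) and none rose, and 2 to 4 were called with 1 library left out. Hspb7, a small heat shock protein of muscle, was at 1794, 2105 and 2274 CPM against 340, 688 and 659 CPM (-1.87 ± 0.33, edgeR adjusted p = 0.00345). Bag3, of chaperone-assisted autophagy, was at 308, 193 and 251 CPM against 91.4, 127 and 123 CPM (-1.14 ± 0.23, adjusted p = 0.00623). Both held without any 1 library, whereas Hspb1 lost its call without any but F2 (up to 0.143) and Cryab without 21, 41, F1 or F4 (up to 0.159). All 4 are abundant in muscle, and their part in the fall of the cardiomyocyte markers was not tested. None of 18 genes of the unfolded protein and integrated stress response was called by edgeR or DESeq2, 2 rose in limma-voom, and 3 had an unadjusted edgeR p under 0.05, with lower levels. They summed to 10950, 5963 and 10900 CPM against 8022, 10890 and 9845 CPM, so that the groups overlapped. None of 20 NRF2 targets and antioxidant genes was called by edgeR, 1 fell in DESeq2, 3 rose and 2 fell in limma-voom, and 3 had an unadjusted edgeR p under 0.05. Of 18 immediate early genes 5 fell (Jun, Junb, Jund, Nr4a1 and Klf2), none rose, and the median was -0.47, with 2 to 5 called when 1 library was left out. Jund, an AP-1 subunit, was at 294, 286 and 329 CPM against 126, 125 and 115 CPM (-1.31 ± 0.24, edgeR adjusted p = 0.00373), and Jun, another, at 124, 112 and 108 CPM against 57.1, 57.8 and 50.1 CPM (-1.06 ± 0.22, adjusted p = 0.00673). Both held without any 1 library, with ranges inside each group that were small beside the gap. Junb (-1.13 ± 0.29) lost its call without 11, F1 or F4 (up to 0.105), Nr4a1 (-0.70 ± 0.21) without 11 or F1 (up to 0.172) and in edgeR on these 6 libraries alone (0.102) and Klf2 (-0.98 ± 0.25) without F1 or F4 (up to 0.0811). Otud1, a deubiquitinase on none of these lists, was at 37.0, 50.8 and 52.5 CPM against 10.2, 14.6 and 9.25 CPM (-2.04 ± 0.28, edgeR adjusted p = 0.00206), and held without any 1 library.

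Of 13 clock genes 3 fell, all of them repressors of the clock: Per1 (-1.23 ± 0.29, edgeR adjusted p = 0.0126), Per2 (-0.71 ± 0.18, adjusted p = 0.0169) and Cry2 (-0.56 ± 0.18, adjusted p = 0.0421). Per1 was at 58.5, 57.6 and 40.5 CPM against 20.7, 22.8 and 23 CPM, with no overlap. Per1 lost its call without F1 (0.0671), Per2 without 11, F1 or F4 (up to 0.0862) and Cry2 without any but F2 (up to 0.158). Cry2 was also not called in edgeR on these 6 libraries alone (0.0887), and neither Per2 (0.0533 and 0.0665) nor Cry2 (0.131 and 0.133) was called in limma on TPM. The hour of tissue collection is not stated in the sources used here.

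Some genes of cell division rose. Of 13 mitosis genes 5 rose (Mki67, Bub1, Cenpf, Kif20a and Nusap1) and none fell, all 13 had a positive log2 fold change, and the median was 0.86. In 9 of the 13 all libraries with F lay above all without, while 36.3% of all tested genes stood apart in either direction. Of the 13, 1 to 3 were called with 1 library left out, 2 of them without F1. In limma on TPM 2 of the 13 rose, and with the length trend taken out 3. The 13 summed to 126 to 196 CPM in MI24h and to 246 to 405 CPM in MI24h_F, with F4 the highest. Ncapg, a condensin subunit outside this list, was at 3.35, 5.44 and 3.77 CPM against 15.7, 17.0 and 20 CPM. The log2 fold change of Ncapg was 2.06 ± 0.34 (edgeR adjusted p = 0.00276). With counts divided by library totals alone, without TMM, its 3 libraries with F also lay above all 12 without F in the series. Whether they lie above Sham with TMM scaling was not tested. Smc4, another condensin subunit, was at 40.3, 50.3 and 52.9 CPM against 134, 117 and 142 CPM (1.45 ± 0.22, adjusted p = 0.00217). Bub1, the spindle checkpoint kinase, was at 12.2, 15.6 and 15.1 CPM against 30, 29.6 and 35.0 CPM (1.14 ± 0.24, adjusted p = 0.00683). These 3 held without any 1 library, as did the motor Kif4a (1.51 ± 0.33) and Trim59, a ubiquitin ligase (1.46 ± 0.27).

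Other division genes were higher with more spread. Mki67, the Ki-67 gene, was at 32.3, 47.6 and 28.5 CPM against 61.4, 74.6 and 113 CPM (1.2 ± 0.36, edgeR adjusted p = 0.0343, and lost without any but 21, up to 0.139). Cenpf, a kinetochore protein gene, was at 4.96, 5.93 and 4.94 CPM against 11.9, 15.8 and 26.8 CPM (1.78 ± 0.49, edgeR adjusted p = 0.0249, lost without 11, 21, 41 or F4, up to 0.101, and 0.0683 in limma-voom). Nusap1, a spindle protein gene (1.36 ± 0.42), lost its call without any 1 library (up to 0.129), and Kif20a (1.23 ± 0.39) without any but 21 (up to 0.163) and in limma-voom (0.0751). The checkpoint kinase Ttk (1.54 ± 0.38) lost it without 11, F1 or F4 (up to 0.0602), and Cep55, of the last step of division (1.52 ± 0.38), without 11 (0.0617). Of 15 DNA replication genes Ccne2 (1.15 ± 0.29) and Pola1 (0.92 ± 0.24) rose and Gins2 fell (-0.57 ± 0.18), each with a call that some single library ended: 11, 21 or F1 for Ccne2 (up to 0.0636), 11, 41 or F1 for Pola1 (up to 0.0894) and any of the 6 for Gins2 (up to 0.180). The cells that carried these transcripts cannot be told apart in bulk tissue.

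Promoters of 3 of these genes are printed because they carry the 2 short elements known from genes of late cell cycle, the CCAAT box and the core of the cell cycle homology region, here searched as CCAAT and TTTGAA on either strand and set in capitals. The windows are RefSeq's for GRCr8, of 300 bases each: Cenpf at chr13:103760837-103761136, minus strand, Mki67 at chr1:199952544-199952843, minus strand and Nusap1 at chr3:127057045-127057344, plus strand.
Cenpf: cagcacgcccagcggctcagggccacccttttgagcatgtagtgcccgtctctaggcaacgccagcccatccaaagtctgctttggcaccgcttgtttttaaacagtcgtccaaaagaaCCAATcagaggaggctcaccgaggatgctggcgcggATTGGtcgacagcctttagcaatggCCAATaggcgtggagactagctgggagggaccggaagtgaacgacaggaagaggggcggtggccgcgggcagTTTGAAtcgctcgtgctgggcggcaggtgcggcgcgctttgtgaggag
Mki67: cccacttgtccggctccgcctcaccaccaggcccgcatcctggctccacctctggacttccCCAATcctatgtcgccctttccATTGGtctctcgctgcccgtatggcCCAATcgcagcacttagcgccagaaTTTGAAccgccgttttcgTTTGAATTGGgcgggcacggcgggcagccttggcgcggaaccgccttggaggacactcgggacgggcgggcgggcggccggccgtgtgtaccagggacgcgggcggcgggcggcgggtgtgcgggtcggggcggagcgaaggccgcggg
Nusap1: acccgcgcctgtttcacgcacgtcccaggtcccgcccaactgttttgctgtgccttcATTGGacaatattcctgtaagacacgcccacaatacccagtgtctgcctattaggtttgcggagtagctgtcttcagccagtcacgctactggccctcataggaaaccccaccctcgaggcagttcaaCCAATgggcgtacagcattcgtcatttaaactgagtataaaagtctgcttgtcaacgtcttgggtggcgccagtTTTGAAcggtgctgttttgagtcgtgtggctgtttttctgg
Of the 10 mitosis genes with a window, 7 held CCAAT and 7 held TTTGAA (70.0% each), against 37.2% and 11.7% of the 9076 windows of all tested genes. Over all called genes TTTGAA was in 19.5% of the 473 windows of genes that rose and in 8.06% of the 695 of genes that fell, and CCAAT in 37.8% and 38.1%. A match is a description of the sequence.

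Among the inflammatory lists few genes were called. None of 14 neutrophil markers was called by edgeR or DESeq2 or had an unadjusted p under 0.05, and 3 rose in limma-voom. Their sum ran from 853 to 3844 CPM in MI24h, with library 11 the highest, and from 1817 to 2220 CPM in MI24h_F. S100a9, a neutrophil protein gene, was at 992, 143 and 397 CPM against 454, 373 and 353 CPM. Csf3r, the G-CSF receptor, was at 707, 152 and 167 CPM against 246, 268 and 205 CPM. In both genes the values with F lay inside the range without it. The 14 markers of monocytes and recruited macrophages summed to 9153 to 10390 CPM in MI24h and to 14760 to 18460 CPM in MI24h_F. None was called by edgeR, DESeq2 or limma-voom or had an unadjusted p under 0.05, and 13 of 14 had a positive log2 fold change. Fn1, fibronectin, made up much of that sum, at 4528, 4054 and 3510 CPM against 7293, 6465 and 7326 CPM (0.80 ± 0.51), followed by Gpnmb of lipid-laden macrophages at 752, 1705 and 1299 CPM against 2621, 2280 and 1802 CPM (0.84 ± 0.87). Both stood apart in these 6 libraries. Their SE comes from the spread in all 7 groups, and neither was called (edgeR adjusted p = 0.319 and 0.568). In edgeR on these 6 libraries alone Fn1 rose (0.85, adjusted p = 0.0291) and was the 1 call on this list, while Gpnmb was not called.

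Resident macrophage genes went both ways. Lyve1, a hyaluronan receptor of resident macrophages and lymphatic vessels, rose from 48.9, 35.0 and 53.5 CPM to 79.2, 78.0 and 96.1 CPM (0.88 ± 0.22, edgeR adjusted p = 0.0167, lost without 21, F1 or F4, up to 0.0737). C1qa and C1qc, which start the classical complement pathway, fell (-1.07 ± 0.27 and -0.97 ± 0.29, edgeR adjusted p = 0.0156 and 0.0371). C1qa was at 40.4, 41.1 and 37.1 CPM against 18.3, 19.6 and 18.4 CPM and lost its call without F1 (0.0744), while C1qc lost it without any 1 library (up to 0.121). Alox15, the lipoxygenase that makes resolving lipid mediators and that macrophages and eosinophils carry, had the largest log2 fold change among the called genes with a mean of at least 10 CPM and no overlap. It was at 34.2, 11.4 and 9.80 CPM against 75.9, 56.8 and 126 CPM (2.22 ± 0.66, edgeR adjusted p = 0.0343, lost without 21, 41, F1 or F4, up to 0.118). Il33, the alarmin of stromal and endothelial cells, was at 34.7, 21 and 33.0 CPM against 72.2, 78.4 and 61.9 CPM (1.26 ± 0.29, adjusted p = 0.0110) and held without any 1 library. Of 12 inflammatory cytokines it was the only 1 that edgeR called, and of 24 chemokines none was called by edgeR, while DESeq2 called 4 and limma-voom 7, and 5 had an unadjusted edgeR p under 0.05. Ccl2, which recruits monocytes, was at 423, 501 and 550 CPM without F and higher in all 3 libraries with F, at 1111, 968 and 852 CPM (0.99 ± 0.62, edgeR adjusted p = 0.312). It rose in limma-voom (adjusted p = 0.0381) and in edgeR on these 6 libraries alone (adjusted p = 0.0164).

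Of 16 genes of lysosomes and lipid-laden macrophages 12 had a positive log2 fold change and 2 were called. Lamp2, a lysosome membrane protein gene, was at 203, 170 and 196 CPM against 367, 332 and 265 CPM (0.76 ± 0.17, edgeR adjusted p = 0.00983, and 0.0646 without F1), and Lipa, the lysosomal lipase, at 114, 149 and 166 CPM against 265, 302 and 192 CPM (0.83 ± 0.23, adjusted p = 0.0246, lost without 11, 21, F1 or F2, up to 0.101). Red cell markers were uneven between libraries. The 4 summed to 1315 to 4169 CPM in MI24h and to 4163, 4287 and 13010 CPM in F1, F2 and F4, so library 11 of MI24h lay at the level of F1. All 4 had an unadjusted edgeR p under 0.05 with a higher level, edgeR called 1, limma-voom 2 and DESeq2 all 4. Alas2, of heme synthesis in red cell precursors, was at 6.78, 2.08 and 4.11 CPM against 15.1, 9.22 and 30.3 CPM (2.08 ± 0.60, edgeR adjusted p = 0.0304, lost without 21, 41, F1 or F4, up to 0.139). How much blood each sample held was not tested.

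Vessel, stromal and muscle-wall genes gave scattered calls. Among 11 endothelial markers Emcn, a sialoprotein gene of veins and capillaries, rose from 46.6, 88.2 and 52.1 CPM to 137, 101 and 112 CPM (0.90 ± 0.23, edgeR adjusted p = 0.0180, lost without 11, 41 or F1, up to 0.0973). Egfl7, a secreted endothelial protein gene, fell from 101, 107 and 122 CPM to 65.9, 62.2 and 59.7 CPM (-0.82 ± 0.15, adjusted p = 0.00380) and held without any 1 library. None of 20 fibroblast and matrix genes was called by edgeR, while 1 rose in DESeq2 and in limma-voom and 1 had an unadjusted p under 0.05. In edgeR on these 6 libraries alone 3 rose. Their sum was 8752 to 10850 CPM in MI24h and 13330 to 15030 CPM in MI24h_F, and Fn1, counted on this list too, was the largest part of both. Collagen III, Col3a1, was at 482, 1147 and 1006 CPM against 1177, 1373 and 1490 CPM (0.62 ± 0.37, edgeR adjusted p = 0.282). The 23 interferon response genes varied more within groups than between them. They summed to 4113, 3970 and 1161 CPM against 5667, 1960 and 772 CPM, none was called by edgeR or DESeq2 or had an unadjusted p under 0.05, and 2 fell in limma-voom.

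Hif1a, the oxygen-regulated transcription factor, rose. It was at 439, 330 and 389 CPM in MI24h and at 1024, 742 and 657 CPM in MI24h_F, above a Sham mean of 114 CPM (1.07 ± 0.28, edgeR adjusted p = 0.0182, lost without 21, 41 or F1, up to 0.106). Of 18 genes of the hypoxia response it was the only 1 that edgeR called, and the list's median was -0.21. That median was -0.00020 without 11, -0.38 without 21, where 2 genes fell, and 0.09 in limma-voom. Vegfa, the vessel growth factor, was at 601, 232 and 353 CPM against 161, 280 and 265 CPM (-0.75 ± 0.33) and Adm, adrenomedullin, at 76.4, 28.7 and 91.2 CPM against 22.1, 39.7 and 41.8 CPM (-0.92 ± 0.36). Library 21 lay among the values with F in both, and neither was called (edgeR adjusted p = 0.136 and 0.0971). Of 16 genes of glucose uptake and glycolysis 3 fell (Eno3, Pfkl and Gapdh). Eno3, the muscle enolase, was at 55.4, 41.1 and 41.5 CPM against 8.40, 18.9 and 14.9 CPM (-1.70 ± 0.40, edgeR adjusted p = 0.0121, and 0.0766 without F1), and Pgam2, the muscle mutase of the step before it and not on the list, at 26.9, 29.1 and 16.2 CPM against 3.10, 6.61 and 5.50 CPM (-2.24 ± 0.65, adjusted p = 0.0315, lost without any but 41, up to 0.142). Pfkl, the liver form of phosphofructokinase (-0.73 ± 0.20), lost its call without 11, F1 or F2 (up to 0.141). Gapdh (-0.68 ± 0.19), identical in counts to LOC108351137, lost it without 11, 41, F1 or F4 (up to 0.131). In edgeR on these 6 libraries alone neither Pfkl (0.0652) nor Gapdh (0.0715) was called.

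Cell death genes were called in both directions. Of 17, 3 rose and 2 fell. The inflammasome protease Casp1 (1.01 ± 0.25, edgeR adjusted p = 0.0156) and the death receptor Fas (0.74 ± 0.20, adjusted p = 0.0244) rose, and the pore former Bax (-1.14 ± 0.25, adjusted p = 0.00873) and the survival gene Bcl2l1 (-0.60 ± 0.16, adjusted p = 0.0220) fell. Bax was at 61.3, 64.3 and 72.5 CPM against 26.9, 31.6 and 31.3 CPM, with no overlap between the groups. Bax lost its call without F1 (0.0567), Casp1 without 41 or F1 (up to 0.119), Fas without 21, F1 or F2 (up to 0.126) and Bcl2l1 without 11, 41, F1 or F4 (up to 0.122). In edgeR on these 6 libraries alone neither Fas (0.0776) nor Bcl2l1 (0.0806) was called. Nfkb2, a subunit of the alternative NF-κB pathway, was the only 1 of 14 NF-κB targets called by edgeR, at 151, 105 and 109 CPM against 73.5, 75.1 and 80.9 CPM (-0.67 ± 0.15, edgeR adjusted p = 0.00924, and 0.0542 without F1).

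The other genes named by size of change share no fixed list. Falling with calls that held without any 1 library were Naa38, a subunit of the N-terminal acetyltransferase C complex, at 41, 47.0 and 47.2 CPM against 7.41, 9.03 and 13.6 CPM (-2.17 ± 0.41), Cops9, the smallest COP9 signalosome subunit, at 27.0, 27.7 and 45.0 CPM against 6.13, 7.95 and 9.98 CPM (-2.05 ± 0.33), and Adamtsl5 of the matrix (-1.94 ± 0.31). The edgeR adjusted p of these 3 was 0.00399, 0.00262 and 0.00262. Of genes of mitochondrial proteins, Nudt8 (-1.98 ± 0.48) and Macrod1 (-1.97 ± 0.46), and also the pair LOC679739 and LOC100912599, identical in counts (-2.07 ± 0.46), lost their calls without F1 (edgeR adjusted p = 0.0804, 0.0655 and 0.0587). Tgm1, a transglutaminase, was at 58.2, 19.9 and 44.3 CPM against 5.75, 12.2 and 11.2 CPM (-2.07 ± 0.65) and lost it without any but 21 (up to 0.177). Rising were Sh3bgrl (1.61 ± 0.34, and edgeR adjusted p = 0.0523 without F1), Rgs18 of platelets and leukocytes (1.69 ± 0.49, lost without 11, 21, 41 or F1, up to 0.167), RGD1560455, a synonym of P2ry10b in RefSeq (1.81 ± 0.46, lost without 11, 21 or F1, up to 0.0858), and LOC681325 (1.56 ± 0.43, lost without any but F4, up to 0.139).

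Calls followed transcript length. Relative length came from each gene's counts divided by its TPM and was set to 1 at the middle of each library. Genes that rose had a median relative length of 1.45 and genes that fell one of 0.811, against 0.987 for all tested genes. In the shortest decile of genes 2.30% rose and 12.2% fell, and in the longest 10.8% rose and 2.57% fell. Uqcr11 (0.121), Cops9 (0.122) and Cox5b (0.131) are among the short transcripts, while Esrra (1.07) lies at the middle and Smc4 (2.26) among the long. In each library the slope of log2 level on log2 length was 0.0838 to 0.0924 in MI24h_F and 0.0896, 0.0214 and -0.144 in MI24h, so that library 41 differed most from the rest. With the length trend of every library taken out by a smooth curve, 691 genes rose and 945 fell. Uqcr11 then had -1.93, Cox5b -1.45, Cops9 -1.72, Esrra -0.98, Smc4 1.33 and Nkx2-5 -1.83, all still called in edgeR, while Mki67, Kif20a, Mb, Acads, Gapdh, Cryab, C1qc, Lipa, Gins2 and Bckdha were not. Whether RNA integrity differed between the groups was not tested.

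**Figure D4:**
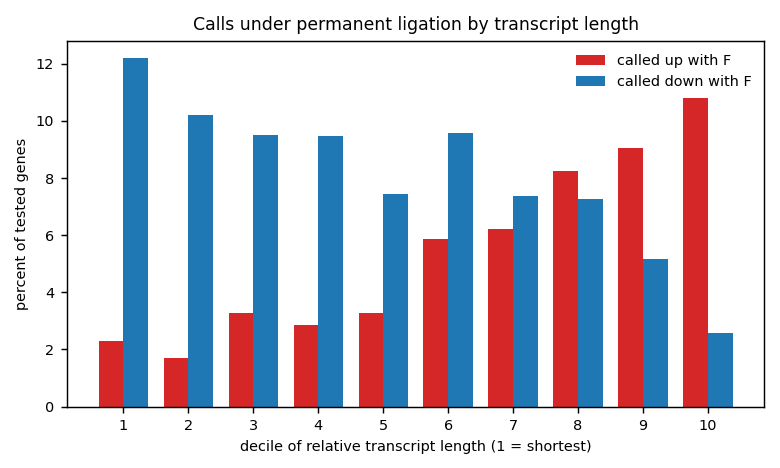
Percent of tested genes (y) called up or down with F under permanent ligation in each decile of relative transcript length (x, 1 is the shortest). The share called up runs from 2.30% in the shortest to 10.8% in the longest decile, and the share called down from 12.2% to 2.57%.

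A few transcripts marked every library with F, in all 3 injuries. For this comparison counts were divided by each library's total alone, without TMM, over 14499 genes with a count. On that scale 65 genes were higher in each of the 9 libraries with F than in any of the 12 without. Sham was included among the 12, and 7 genes were lower. Scaling by TMM would raise the Sham levels, with factors of 0.535 to 0.677 there. Whether the 65 would then still lie above Sham was not tested. The sharpest was RGD1359290, a synonym of the ribosomal protein pseudogene Rpl17-ps16 in RefSeq, whose reads cannot be told from those of near-identical copies. It had 0 to 7 counts in the 12 libraries without F and 126 to 257 in the 9 with F. Under permanent ligation its counts were 1, 2 and 3 against 257, 199 and 144 (log2 fold change 6.64 ± 0.56, edgeR adjusted p = 4.83e-06, the smallest of all genes). Such a split follows the letter F and anything else that the 9 libraries shared, and these cannot be told apart. Ncapg is among the 65 and Cops9 among the 7.

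The same contrast was then set beside those of the 2 reperfused injuries, which share no library with it. For F against no F, edgeR called 1130 genes with 6 h of ischemia (9.62% of those tested) and 9 with 1 h of ischemia (0.0766%). The count at 1 h depended on the tool, with 142 up and 175 down in DESeq2 and 1443 up and 1333 down in limma-voom. At 6 h DESeq2 called 794 up and 943 down, and limma-voom 886 up and 1121 down. Of the 1523 genes called under ligation, 657 were called with 6 h of ischemia too, all in the same direction. That is 43.1% of the ligation calls and 58.1% of the calls at 6 h. Of the 1523, 97.8% had the same sign at 6 h, against 76.2% of all genes, and 76.1% had the same sign at 1 h, against 57.6% of all genes. Their median log2 fold change was 0.80 for those up and -0.89 for those down under ligation, 0.60 and -0.62 at 6 h, and 0.18 and -0.21 at 1 h. Esrra had -1.0 ± 0.16 at 6 h (edgeR adjusted p = 0.00363) and -0.50 ± 0.16 at 1 h (adjusted p = 0.169). Of the 13 mitosis genes 11 rose at 6 h and none was called at 1 h, with medians of 1.69 and 0.85. Smc4 had 1.39 ± 0.22 and 0.45 ± 0.22, and Ncapg 1.80 ± 0.34 and 1.10 ± 0.34.

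**Figure D5:**
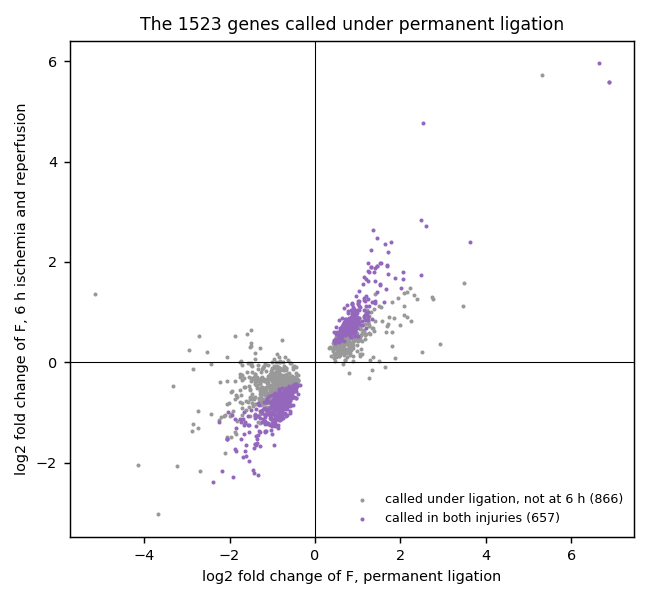
Log2 fold change of F under permanent ligation (x) and with 6 h of ischemia and reperfusion (y) for the 1523 genes called under permanent ligation, 1 point per gene. The 657 genes called in both injuries lie in the lower left and upper right parts, and no library is shared between the axes.

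For cardiac and metabolic genes the values in the 3 injuries lay further apart. Cardiomyocyte markers had a median of -1.38 under ligation, -0.19 at 6 h and 0.29 at 1 h, nuclear respiratory chain genes -0.66, -0.07 and -0.05, and PPARα target genes -0.35, -0.08 and 0.35. Cpt1b had -1.76 ± 0.55, -0.24 ± 0.55 and 0.70 ± 0.55. Pdk4 had -0.78 ± 0.57 under ligation, -0.35 ± 0.57 at 6 h and 1.71 ± 0.58 at 1 h. None of these reperfusion values of Cpt1b and Pdk4 was called. The differences themselves were tested as interactions. Against 1 h of ischemia edgeR called 0 genes (0% of 11742, smallest adjusted p = 0.101), with 1990 at an unadjusted p under 0.05, while DESeq2 called 226 and limma-voom 2003. Against 6 h edgeR also called 0 (0%), with 425 at an unadjusted p under 0.05, DESeq2 called 1 and limma-voom 0. For Cpt1b the difference from 1 h was -2.45 ± 0.77 (edgeR adjusted p = 0.180) and for Uqcr11 -2.07 ± 0.43 (adjusted p = 0.135). Without library F1 of MI1h_F the count against 1 h was 29, and without library 11 of MI1h_R it was 1.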

How the data were processed

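Bulk RNA of the infarct zone was sequenced on an Illumina HiSeq after RNeasy extraction and NEBNext Ultra library preparation, per the labels' protocols. Reads were processed with STAR 2.7.3a and RSEM 1.3.1 on the rat build rn7, per the submitters' processing notes. The authors deposited expected counts, found here as whole numbers, and TPM values per gene symbol. The main fit used the counts of all 21 libraries in 7 groups in edgeR 4.0.16 (filterByExpr, TMM, quasi-likelihood test, Benjamini-Hochberg over 11742 genes, R 4.3.3). The SE is the size of the log2 fold change before edgeR's shrinkage, divided by the square root of the test's F statistic (not the pretreatment F). The printed fold changes are edgeR's shrunken values, so they do not give the SE exactly. The deposited TPM served an alternative fit in limma 3.58.1 and, with the counts, relative transcript length.

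Named were a fixed set of receptors and targets, up to 15 called genes a direction by size of change with a mean of at least 10 CPM and no overlap, and up to 5 members of each list by p (or, with none called, the 3 most abundant), shortened here. Genes and lists (46 lists, 633 of 766 symbols tested) were chosen with earlier results of these data known. Symbols with identical counts in every library (353 sets) share reads and are given together where named.

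Replicate numbers shared between the groups gave no sign of pairs. Deviations of same-numbered libraries from their group means had correlations of -0.0556, -0.114 and -0.0258. Those of differently numbered libraries ran from -0.0482 to 0.118. With means of 3 libraries these values cannot exclude pairs, and the main fit used no block. Replicates differed by more than counting noise. Alternatives were DESeq2 1.42.0, limma-voom, other scalings, no low-count filter and leaving out each library. The libraries of the contrast were also fitted alone, without and with a replicate block. Chosen after seeing the data were a length trend removed, genes split by F removed, and libraries 41 and F1 both left out. The edgeR step was also run on simulated counts with known changes added. That simulation held no length trend and no library that deviated as a whole, so it cannot show how far calls depended on single libraries. Promoter windows are RefSeq's for GRCr8, were matched by symbol, and are not of the build used for counting. Acot1 was not analysed here, and some genes that the naming rule takes are not reported here.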

Additional observations from a re-analysis of the deposited data

Results flagged for a closer look

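Over all genes tested, the libraries with F lay entirely on one side of those without F under permanent ligation in 4258. With 1 h of ischemia and 23 h of reperfusion, 972 of these stood apart on the same side and 140 on the opposite side. Among the genes named in the text, 3 stood apart on opposite sides in this way. The difference of the F effect between the 2 injuries was tested as an interaction, and edgeR called none of the 3 after adjustment. ATP8 had a difference of 5.20 on the log2 scale (2.16 under ligation, -3.04 at 1 h, edgeR adjusted p = 0.101). Myh6 had -2.31 (-1.34 and 0.97, edgeR adjusted p = 0.196) and Ccl2 1.88 (0.99 and -0.88, edgeR adjusted p = 0.287). ATP8 overlaps ATP6 on the mitochondrial genome, so how its reads were assigned is uncertain. The change of ATP8 under ligation was 1.1 and not called in limma on the deposited TPM values (adjusted p = 0.292 and 0.302).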

How the results depend on the processing

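The counts of called genes moved with the tool and with single libraries. Against 609 up and 914 down in edgeR on all 21 libraries, DESeq2 called 913 and 1151, and limma-voom 1288 and 1628. On the 6 libraries of the contrast alone edgeR called 626 and 708, and with a replicate block added 237 and 388. Of the calls with the block, 510 were also called in the main fit. Leaving out 1 library gave 132 to 431 up and 184 to 615 down. Without both library 41 of MI24h and library F1 of MI24h_F, 1 gene rose and 0 fell. The difference from 1 h of ischemia gave 226 calls in DESeq2, 2003 in limma-voom and 0 to 29 with 1 library left out, and the difference from 6 h gave 1 in DESeq2. The cause was not tested, though each fit with fewer libraries has fewer samples. Of uncalled genes, the log2 fold change changed sign over the fits with 1 library left out for Ppara (-0.42 to 0.20), Rxra (-0.33 to 0.12), Angptl4 (-0.40 to 0.054), Plin2 (-0.083 to 0.54), S100a9 (-0.82 to 0.54) and Csf3r (-0.87 to 0.59). It also changed sign in limma-voom for Angptl4 (0.24), S100a9 (0.52) and Csf3r (0.23), with the replicate block for Rxra (0.010) and S100a9 (0.057), and without both 41 and F1 for Plin2 (-0.013). Depth of 12621624 to 14920229 counts limits genes near 1 CPM, such as Ucp3.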
